A study of Mus musculus with 8 samples.

Results

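The genes of the ISG15 conjugation system were followed in mouse splenic CD8+ T cells that had been kept under persistent T cell receptor stimulation. There are 5 of them, found by symbol among the 22520 genes and assembled transcripts of the deposited table: the modifier *Isg15*, the activating enzyme *Uba7*, the conjugating enzyme *Ube2l6*, the ligase *Herc6* and the protease *Usp18*. The set was chosen on the expression values of the same libraries, in which the 5 genes had been seen to be higher after treatment, so their levels are given as a description with no test. The cells were purified CD8+ T cells from spleens, stimulated with antibodies to CD3 and CD28 and with IL-2 until harvest on day 6. From day 3 the medium held either 40 µM DADA (diisopropylamine dichloroacetate, an inhibitor of pyruvate dehydrogenase kinase) or the solvent DMSO, with 4 bulk RNA-seq libraries in each group. No allele differed between the groups, and the paper describes wild-type mice as the source of spleens for this culture. The strain and age of the mice that gave these spleens are not stated in the labels. The paper's methods list mice of several strains with sex and age, without naming those used for these libraries. The libraries are labelled as biological replicates without naming separate animals, so p-values measure the spread between these cultures.

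ISG15 is a small ubiquitin-like protein that interferons induce strongly. It is attached to other proteins by a chain of enzymes that parallels ubiquitination: UBA7 activates it, UBE2L6 carries it, and a HERC ligase places it on the target, which in mice is HERC6. USP18 removes ISG15 from its targets and, apart from that activity, binds the receptor chain IFNAR2 and dampens type I interferon signalling. In CD8+ T cells these genes belong to the wider group of interferon-stimulated genes. RNA-seq measures their transcripts, and ISG15 conjugates on proteins were not analysed here.

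Values are FPKM, which corrects fragment numbers for the length of the transcript and for library size, so levels can be compared between genes per length. Means are given with the SD over the 4 libraries of a group. The summed FPKM was 450473 to 456939 in the DMSO libraries and 438299 to 449480 in the DADA libraries. FPKM holds no counts, and the steps of the lowest values gave an estimated depth of 13700000 to 16220000 mapped fragments with DMSO and 15180000 to 18840000 with DADA. Markers of CD8 T cells were high in every library, with *Cd3d*, *Cd3e*, *Cd3g*, *Cd8a* and *Cd8b1* summing to 673.8 to 680.1 FPKM with DMSO and 776.3 to 805.4 FPKM with DADA. Markers of myeloid cells summed to at most 0.188 FPKM in any library, with *Csf1r* and *Adgre1* listed at 0 throughout, and those of CD4 T cells and erythroid cells to at most 0.513 FPKM. Summed NK markers were at 0 to 0.0959 FPKM with DMSO and 0.144 to 0.336 FPKM with DADA, and *Klrb1c*, *Foxp3* and *Itgam* were each higher in every DADA library at no more than 0.268 FPKM, whose part in the results was not tested. The B cell markers summed to at most 3.55 FPKM, nearly all of it *Cd79b*. The markers of plasmacytoid dendritic cells, which are strong producers of interferon, summed to at most 5.45 FPKM, nearly all of it *Pacsin1*, with *Klk1* at 0. In bulk RNA, more cells with a transcript and more transcript per cell cannot be told apart.

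*Isg15* (ENSMUSG00000035692), the modifier itself, was the member with the greatest difference in level. It was at 3.02, 3.43, 3.45 and 2.73 FPKM in DMSO 1 to 4 and at 149.7, 154.4, 136.3 and 147.2 FPKM in DADA 1 to 4. It averaged 3.16 ± 0.342 FPKM over the DMSO libraries (SD, n = 4) and 146.9 ± 7.68 FPKM over the DADA libraries (SD, n = 4), a ratio of 46.5 between the means and of at least 39.6 between any pair of libraries. The groups lay far apart, and DADA 3 was the lowest of the treated libraries. On the log2(FPKM + 1) scale, which understates the difference of genes with low values, the log2 fold change was 5.16, the highest of the 10666 genes tested. That first place depends on the 1 added before the logarithm (the pseudocount). By level, *Isg15* moved from place 8925 among those genes with DMSO to place 392 with DADA. Its only annotated transcript, in GENCODE M21, is 756 bases long, so the DMSO values correspond to an estimated 29.3 to 42.0 fragments per library.

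The promoter of *Isg15* is shown because it holds the interferon-stimulated response element, the site that a complex with STAT2 and IRF9 binds after type I interferon. RefSeq windows of 300 bases, from 250 before to 50 after the gene's start (GRCm38.p6, matched by symbol, not the build of the deposited data), were found for 4 of the 5 members, all but *Usp18*. They were searched on both strands for GAAANNGAAA, in which N is any base. *Isg15* had 3 exact matches that overlap in a single run, the last ending 56 bases before the start, and the window lies at chr4:156200769-156201068 on the minus strand. The capitals mark this run:
Isg15: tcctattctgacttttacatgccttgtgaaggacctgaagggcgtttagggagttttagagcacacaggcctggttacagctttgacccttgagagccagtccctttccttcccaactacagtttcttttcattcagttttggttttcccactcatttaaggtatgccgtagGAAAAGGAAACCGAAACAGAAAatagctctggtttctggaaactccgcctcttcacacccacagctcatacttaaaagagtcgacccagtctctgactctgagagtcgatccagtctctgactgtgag
No exact match was in the windows of *Uba7*, *Ube2l6* and *Herc6*, which says only that these letters are not in those 300 bases. Among all 27025 genes with a window, 3.99% had an exact match. Among 23 other interferon-stimulated genes with a window, 11 (47.8%) had one. With at most 1 mismatch, a search added after the values were seen, the windows of *Isg15*, *Uba7* and *Herc6* matched, but so did those of 38.9% of all genes. In *Uba7*, a match of this looser kind on the strand of the gene begins 3 bases after the start. Another 2, which overlap, end 17 and 11 bases before the start, on the opposite strand to the gene. This stretch is shown because *Uba7* is the enzyme that starts the chain, with the first of them in capitals, from the window chr9:107975317-107975616 on the plus strand:
Uba7: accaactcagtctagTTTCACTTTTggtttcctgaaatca
The gamma-activated site TTCNNNGAA, the site known from the response to interferon gamma, was in none of the 4 windows and in those of 9.55% of all genes.

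*Uba7* (ENSMUSG00000032596), the E1 enzyme that activates ISG15, had the smallest difference of the 5. It was at 6.27, 5.78, 6.82 and 6.23 FPKM in DMSO 1 to 4 and at 12.9, 12.0, 12.8 and 12.1 FPKM in DADA 1 to 4. The ratio of the means was 1.98 and the log2 fold change 0.89. The groups did not overlap, but the lowest DADA value was only 1.76 times the highest DMSO value. *Uba7* was the most abundant of the 5 transcripts with DMSO, at 6.28 ± 0.427 FPKM, and the next to lowest with DADA, at 12.4 ± 0.462 FPKM. *Gm20661*, the gene that overlaps *Uba7* in the annotation, was at no more than 0.0664 FPKM in any library.

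*Ube2l6* (ENSMUSG00000027078), the E2 enzyme that takes ISG15 over from UBA7, was scarce. It was at 0.780, 0.650, 0.971 and 0.973 FPKM in DMSO 1 to 4 and at 4.86, 4.89, 5.04 and 5.18 FPKM in DADA 1 to 4. The ratio of the means was 5.92, and the log2 fold change was 1.70, or 2.45 with a pseudocount of 0.1. All 4 DADA libraries were close together, with a coefficient of variation of 2.95%, against 18.7% with DMSO. The group means were 0.844 ± 0.158 and 4.99 ± 0.147 FPKM. At the longest annotated transcript of 1560 bases, the DMSO values correspond to an estimated 16.4 to 21.5 fragments, and to fewer at a shorter one.

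*Herc6* (ENSMUSG00000029798), the E3 ligase for ISG15 in mice, was at 3.65, 4.02, 4.13 and 4.40 FPKM in DMSO 1 to 4 and at 14.7, 15.4, 15.5 and 15.2 FPKM in DADA 1 to 4. The DMSO libraries averaged 4.05 ± 0.308 FPKM and the DADA libraries 15.2 ± 0.364 FPKM, a ratio of 3.75 and a log2 fold change of 1.68. The difference between the groups was many times the spread within either. In the annotation, 2 further genes overlap *Herc6*, a processed transcript on the same strand and a pseudogene on the other, and neither is listed in the table.

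*Usp18* (ENSMUSG00000030107), the protease that takes ISG15 off its targets, was the lowest of the 5 with DMSO. It was at 0.919, 0.494, 0.505 and 0.632 FPKM in DMSO 1 to 4 and at 29.9, 31.8, 30.2 and 30.0 FPKM in DADA 1 to 4. DMSO 1 was the highest of its group, and no DMSO library reached 1 FPKM. The ratio of the means was 47.8, close to that of *Isg15*, with pairs of libraries between 32.6 and 64.4. The log2 fold change was 4.27, next after *Isg15* among all genes tested at the pseudocount of 1, and 5.41 with a pseudocount of 0.1. The DMSO values correspond to an estimated 12.3 to 23.6 fragments at the longest annotated transcript of 1771 bases, and the DADA values to 811.7 to 1023.4. A long noncoding RNA, *Gm44148*, overlaps *Usp18* on the opposite strand and is not listed in the table. Whether strand was used in assigning fragments is not given in the sources used here, and the labels and the study's methods name different library kits, only the latter with a name that speaks of strand.

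**Figure D1:**
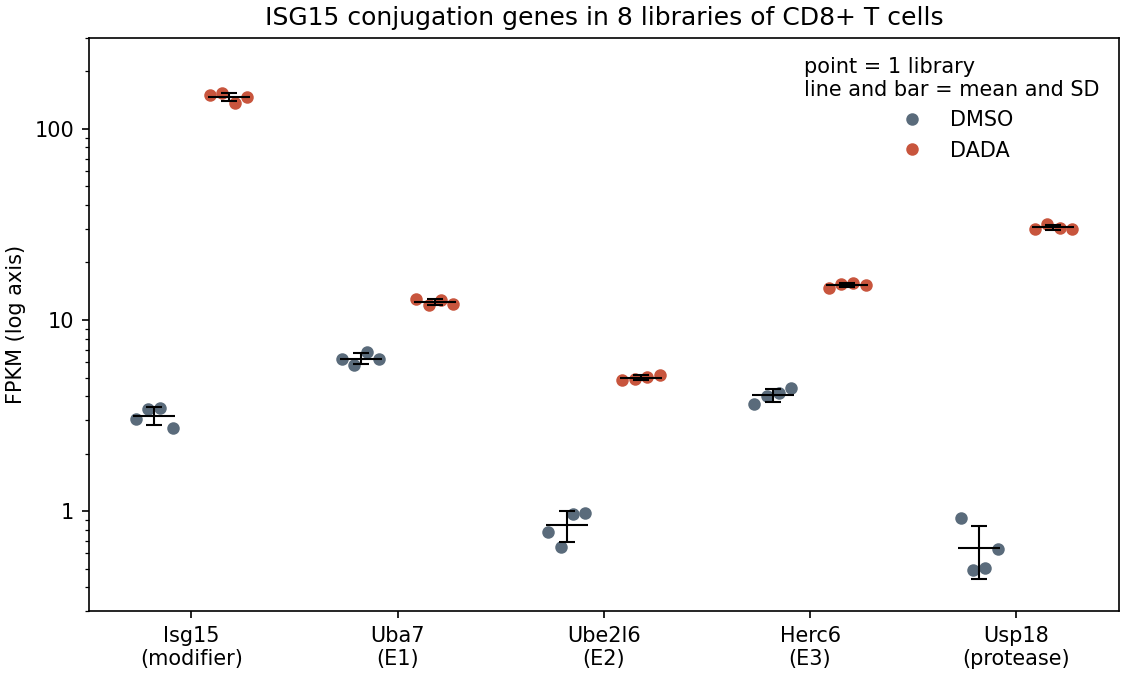
FPKM (log axis) of the 5 genes in each of the 8 libraries, with 1 point per library and the mean and SD of each group of 4 as a line and bar. For every gene the 4 DADA points lie above the 4 DMSO points, with the ratio of means lowest for Uba7 (1.98) and highest for Usp18 (47.8) and Isg15 (46.5).

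All 5 members had every DADA library above every DMSO library, which was the case for 28.4% of the genes tested, and nothing is read from this count because the same contrast chose them. *Ube2l6* and *Usp18* passed the filter, 1 FPKM in at least 4 of the 8 libraries, through their DADA libraries alone. The median log2 fold change of the members was 1.70, against -0.02 over all genes tested. The size of the difference was uneven: *Isg15* and *Usp18* differed by more than 4 on the log2 scale and *Uba7* by less than 1. *Ube2l6* and *Herc6* had like values on that scale at a pseudocount of 1 but not at 0.1 (2.45 and 1.88), and the ratio of *Herc6* to *Ube2l6* was 4.25 to 6.19 in the DMSO libraries and 2.93 to 3.14 in the DADA libraries.

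The order of the levels was therefore different in the groups. With DMSO, *Uba7* was highest, followed by *Herc6*, *Isg15*, *Ube2l6* and *Usp18*. The first 3 were apart from their neighbours in every library, whereas the ranges of *Ube2l6* and *Usp18* overlapped. With DADA, *Isg15* was highest, followed by *Usp18*, *Herc6*, *Uba7* and *Ube2l6*, and the ranges of all neighbours were apart. *Herc6* and *Uba7* exchanged places: the ratio of *Herc6* to *Uba7* was between 0.583 and 0.706 in the DMSO libraries and between 1.14 and 1.28 in the DADA libraries.

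Summed over the 5 genes, the level came to 14.96 ± 0.654 FPKM in the DMSO libraries and 210.0 ± 7.72 FPKM in the DADA libraries, a ratio of 14.0. *Isg15* made up 21.1 ± 2.32% of this sum with DMSO and 69.9 ± 1.17% with DADA. *Uba7* went the other way, from 41.9 ± 1.28% to 5.93 ± 0.394%, although its own level was higher with DADA. The 3 enzymes *Uba7*, *Ube2l6* and *Herc6* together went from 11.2 ± 0.705 to 32.6 ± 0.503 FPKM, a ratio of 2.92, so the modifier and the protease differed far more between the groups than the enzymes that attach ISG15.

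The ratio of modifier to protease, unlike those to the enzymes, was similar in both groups. The ratio of *Isg15* to *Usp18* was 3.29, 6.94, 6.82 and 4.33 in DMSO 1 to 4 and 5.00, 4.86, 4.51 and 4.90 in DADA 1 to 4. The DADA ratios lay inside the range of the DMSO ratios, and the spread was smaller with DADA. The values of *Usp18* rest on more fragments with DADA, and the part of this in the spread was not tested. By contrast, the ratio of *Isg15* to *Uba7* was between 0.439 and 0.593 with DMSO and between 10.7 and 12.9 with DADA, and that of *Usp18* to *Ube2l6* was between 0.521 and 1.18 with DMSO and between 5.80 and 6.50 with DADA. Within the enzyme chain, there was 7.59 ± 1.10 times as much *Uba7* as *Ube2l6* with DMSO and 2.50 ± 0.133 times as much with DADA.

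**Figure D2:**
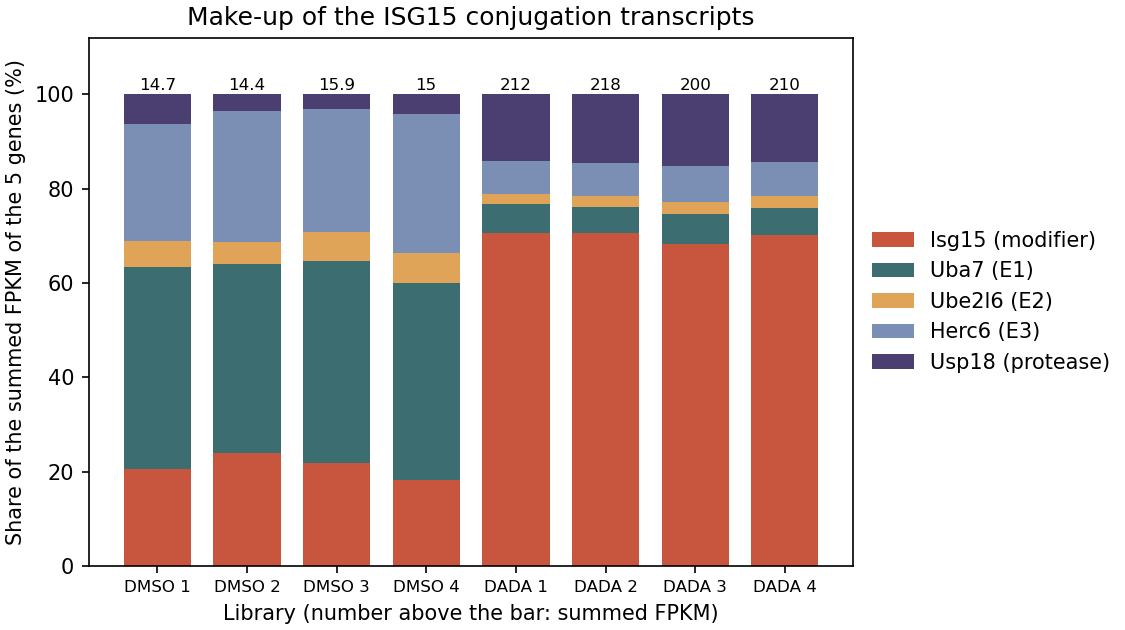
Share of the summed FPKM of the 5 genes (%) taken by each gene in each library, as stacked bars, with the summed FPKM above each bar. Isg15 holds between 18.3% and 23.8% of the sum in the DMSO libraries and between 68.2% and 70.7% in the DADA libraries, while Uba7 holds between 40.2% and 43.0% and then between 5.48% and 6.40%.

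Each member was next set beside the other genes of its enzyme class. The members were chosen on this contrast and the class lists with earlier results known, so where the members stand is a description. Over all genes tested, 30.9% were called higher and 35.3% lower with DADA (limma, adjusted p under 0.05). Of the 19 genes for ubiquitin and other ubiquitin-like modifiers, 18 were tested, with 10 higher and 2 lower, and none changed by 1 or more on the log2 scale. *Ubl5* rose by 0.71 with overlapping groups (limma, adjusted p = 0.005), the autophagy modifier *Map1lc3b* by 0.49 and its relative *Gabarap* by 0.45. *Isg15* was number 18 of these 20 genes by mean FPKM with DMSO and number 6 with DADA.

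All 9 other E1 enzymes were tested, and 5 were called lower and 1 higher with DADA, beside 35.3% lower and 30.9% higher over all genes tested. *Uba1*, the main E1 of ubiquitin, fell from 185.4 ± 2.18 to 159.4 ± 2.07 FPKM (log2 fold change -0.22, limma, adjusted p = 4.81e-06). The SUMO E1 subunits *Sae1* and *Uba2* fell by 0.42 and 0.33 on the log2 scale, and *Nae1*, a subunit of the NEDD8 E1, by 0.26. *Uba6*, the other E1 that can activate ubiquitin, was at 9.93 ± 0.486 and 9.87 ± 0.171 FPKM and was not called (limma, adjusted p = 0.886), and its log2 fold change of -0.01 took the other sign under TPM scaling (0.0234) and without DMSO 4 (0.0156) or DADA 2 (0.0019). *Uba7* was number 9 of the 10 E1 genes by level with DMSO and number 7 with DADA.

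All 32 other E2 genes were tested, with 8 higher and 10 lower, and the highest log2 fold change among them was 0.32, for *Ube2b*. *Ube2l3*, the nearest relative of *Ube2l6*, averaged 76.3 ± 0.864 FPKM in the DMSO libraries and 78.5 ± 1.42 FPKM in the DADA libraries (log2 fold change 0.04, limma, adjusted p = 0.125), a difference that was called under TPM scaling (0.07) and quantile normalization (0.09). The greatest falls were in *Ube2c*, which works with the anaphase-promoting complex (-0.60), *Ube2w* (-0.55), *Ube2v2* (-0.49, with overlapping groups) and *Cdc34* (-0.44). The call for *Ube2v2* was lost without DMSO 2 (limma, adjusted p = 0.0504) or DMSO 3 (limma, adjusted p = 0.052). *Ube2l6* stayed at the foot of this class by level, number 33 of 33 with DMSO and number 32 with DADA.

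Of the 26 other HECT ligases, 24 were tested, with 11 higher and 4 lower, and only 2 were lower under TPM scaling or without DMSO 4. None of the other 4 HERC genes was called higher. *Herc4* fell from 23.2 ± 0.602 to 18.7 ± 0.668 FPKM (log2 fold change -0.30, limma, adjusted p = 2.43e-05). *Herc3*, a close relative of *Herc6*, was at 14.0 ± 0.604 and 12.6 ± 0.629 FPKM (log2 fold change -0.14, limma, adjusted p = 0.02), a call that was lost under TPM scaling (-0.11) and without DMSO 4 (-0.11) or DADA 2 (-0.11). The giant ligases *Herc1* (log2 fold change 0.03, limma, adjusted p = 0.469) and *Herc2* (-0.09, limma, adjusted p = 0.121) were not called, but *Herc2* was called lower under quantile normalization (-0.14, limma, adjusted p = 0.0187). The largest changes of the class were in *Hectd4* (0.39), *Arel1* (0.34), *Smurf1* (0.32, with overlapping groups) and *Herc4*. *Herc6* was number 23 of 27 by level with DMSO and number 11 with DADA.

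Of the 48 other ubiquitin-specific proteases, 42 were tested, with 10 higher and 15 lower. *Usp35* was the only one of them that changed by 1 or more, from 0.696 ± 0.0563 to 2.68 ± 0.0568 FPKM (log2 fold change 1.12, limma, adjusted p = 4.85e-08). It was below 1 FPKM in every DMSO library and so passed the filter through its DADA libraries alone. *Usp25* rose from 26.9 ± 0.614 to 42.4 ± 1.59 FPKM (log2 fold change 0.64, limma, adjusted p = 6.84e-08), while *Usp1*, which acts in DNA repair, and *Usp27x* fell by 0.58 on the log2 scale. *Usp18* was number 43 of 49 by level with DMSO and number 11 with DADA.

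**Figure D3:**
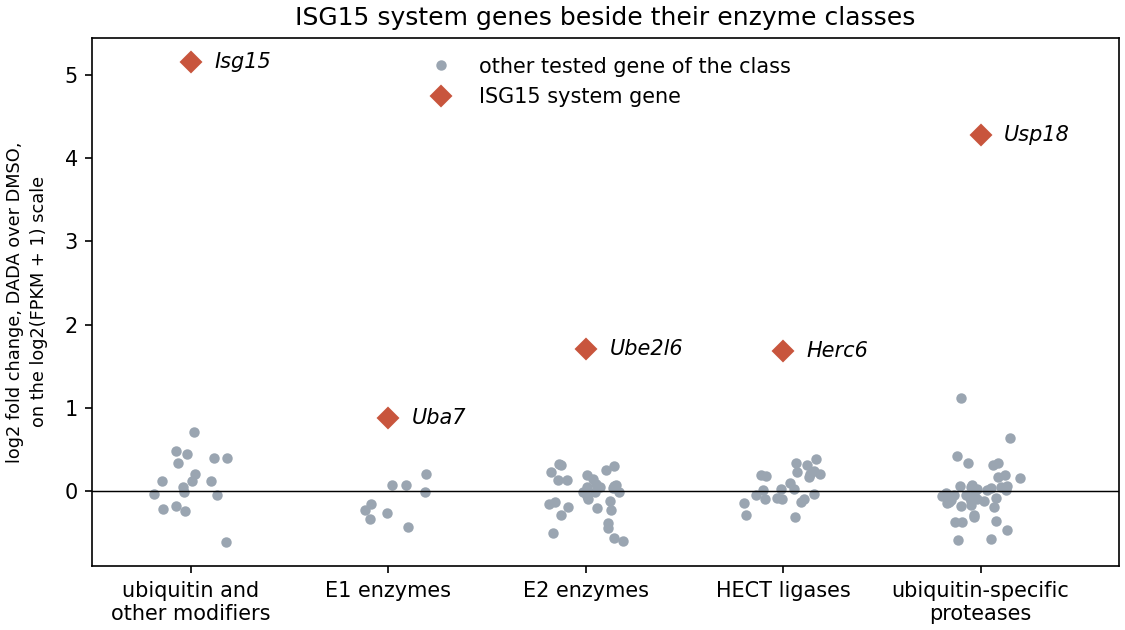
Log2 fold change, DADA over DMSO, on the log2(FPKM + 1) scale, of the 5 ISG15 system genes (diamonds) and of the other tested genes of their enzyme classes (grey points). The highest other gene is Ubl5 at 0.71 among the modifiers, Ube2b at 0.32 among the E2 enzymes, Hectd4 at 0.39 among the HECT ligases and Usp35 at 1.12 among the proteases.

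Several proteins outside the core chain act on ISG15 or are bound by it. Of 13 such genes, 12 were tested, with 2 higher and 8 lower, beside 30.9% higher and 35.3% lower over all genes tested. However, 8 of the 13 are also in the protease or E2 list, among them 1 of the higher and 4 of the lower genes. *Trim25*, a ligase induced by interferon that was also reported to act for ISG15, rose from 13.7 ± 0.371 to 39.8 ± 0.980 FPKM (log2 fold change 1.47, limma, adjusted p = 1.05e-10). *Usp21*, one of several proteases that can also cleave ISG15, rose by 0.17, a call that was lost under quantile normalization, and others of that kind, *Usp2* and *Usp14*, fell by 0.46 and 0.36. *Ube2e1*, an E2 enzyme, fell by 0.38. The 2 chains of LFA-1, the integrin that binds extracellular ISG15, were also lower: *Itgal* averaged 121.6 ± 2.17 FPKM in the DMSO libraries against 101.6 ± 1.99 FPKM (log2 fold change -0.26, limma, adjusted p = 4.66e-06), and *Itgb2* had a log2 fold change of -0.25.

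Among 14 genes whose proteins are known to carry ISG15, 9 were higher and 2 lower, beside 30.9% higher and 35.3% lower over all genes tested. The 5 that rose by 1 or more were *Mx1* (3.08), *Ifih1* (1.88), *Eif2ak2* (1.66), *Rigi* (1.57) and *Trim25*, which are themselves interferon-stimulated genes with antiviral roles. *Plcg1* and *Mapk3* were among those that rose by less, and the 2 that fell were *Irf3* (-0.18) and *Jak1* (-0.16).

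Signalling upstream of *Isg15* was covered by 20 genes, of which 19 were tested, with 12 higher and 4 lower. Over all genes tested, 30.9% were higher and 35.3% lower. Only 4 of the 12 rose by 1 or more on the log2 scale, and the median of the list was 0.21. The complex that binds the response element includes STAT2 and IRF9, and both of these genes were higher with DADA. *Stat2* was at 11.7, 11.9, 11.8 and 12.1 FPKM in DMSO 1 to 4 and at 31.9, 32.1, 32.5 and 33.2 FPKM in DADA 1 to 4 (log2 fold change 1.38, standard error 0.0269, limma, adjusted p = 7.74e-11). *Irf9* rose from 12.0 ± 0.742 to 29.8 ± 0.883 FPKM (log2 fold change 1.25, limma, adjusted p = 5.22e-09).

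*Irf7*, a factor that drives interferon alpha genes and is itself induced by interferon, had the largest difference of this list, averaging 1.15 ± 0.0913 FPKM in the DMSO libraries and 29.5 ± 0.433 FPKM in the DADA libraries (log2 fold change 3.83, limma, adjusted p = 2.68e-12). The receptor chain *Ifnar1* was lower in every DADA library, at 41.4 ± 0.607 and 31.9 ± 0.993 FPKM (log2 fold change -0.37, limma, adjusted p = 1.49e-06). *Ifnar2*, the chain that USP18 binds, was at 22.9 ± 0.832 and 21.8 ± 1.42 FPKM, with overlapping groups (log2 fold change -0.07, limma, adjusted p = 0.215), and was called lower without DADA 2 (-0.11, limma, adjusted p = 0.0239). *Socs3*, a feedback inhibitor of cytokine receptors, rose by 1.22.

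**Figure D4:**
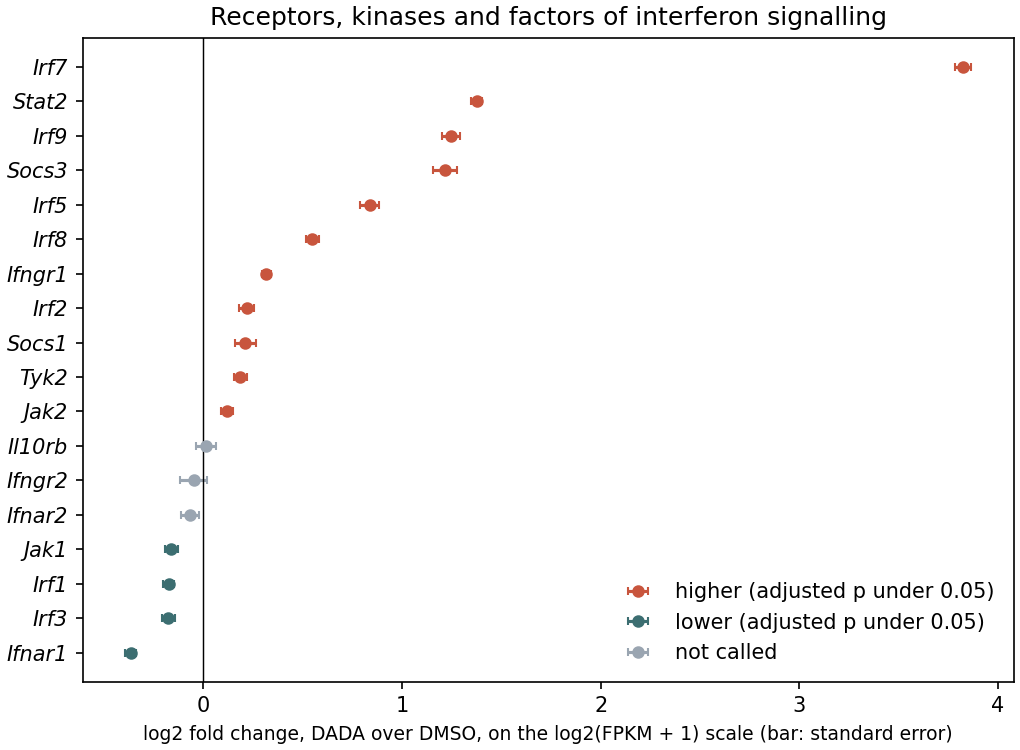
Log2 fold change with its standard error, DADA over DMSO on the log2(FPKM + 1) scale, of 18 of the 19 tested genes of interferon signalling, coloured by the limma call. Irf7 stands at 3.83, the complex subunits Stat2 and Irf9 at 1.38 and 1.25, and the receptor chain Ifnar1 at -0.37.

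Transcripts of the interferons were scarce, apart from *Ifng*. Of 21 interferon genes, 11 were listed at 0 in all 8 libraries, and only *Ifng* was tested, rising from 404 ± 20.1 to 649 ± 8.54 FPKM (log2 fold change 0.68, limma, adjusted p = 6.39e-08). *Ifnb1* was listed at 0 in every DMSO library and at 0.535, 0.412, 0.326 and 0.133 FPKM in DADA 1 to 4, and *Ifna4* was listed at 0 with DMSO and at 0.421, 1.10, 0.803 and 0.842 FPKM. *Ifna2* had the same pattern, at 0 with DMSO and between 0.310 and 0.867 FPKM with DADA. These values are low, and the numbers of fragments behind them were not estimated. The estimated depth was lower in 3 of the 4 DMSO libraries than in any DADA library. DMSO 2, at an estimated 16220000 mapped fragments, was deeper than DADA 3, at 15180000. In DMSO 2 *Ifnb1*, *Ifna4* and *Ifna2* were at 0, and in DADA 3 at 0.326, 0.803 and 0.310 FPKM. The part of depth in the zeros was not tested. Fitted without the filter on low values, 6 interferon genes were called higher, *Ifng* among them. In that fit 4007 of all 16167 genes were called higher. A gene listed at 0 in every DMSO library has no spread there, so nothing is read from this count.

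Other interferon-stimulated genes moved in the same direction as the 5 members. Of 32 such genes, written down with results of these libraries known, 31 were higher and 1 lower, with a median log2 fold change of 1.93. Over all genes tested, 30.9% were higher and 35.3% lower, and 4 of the 32 were already counted among the genes whose proteins carry ISG15. Among the 32, 11 were below 1 FPKM in every DMSO library and so passed the filter through DADA alone, and of the other 21 genes 20 were higher. The largest were *Oasl1* (3.97), *Ifit1* (3.68), *Xaf1* (3.40) and *Rsad2* (3.25), all antiviral or death-related genes induced by type I interferon. *Psmb8*, the immunoproteasome subunit, which was singled out after its value was seen, was the exception, falling from 186.1 ± 2.64 to 173.9 ± 4.77 FPKM (log2 fold change -0.10, limma, adjusted p = 0.005), a call that was lost under quantile normalization. Of the 5 members, *Isg15* and *Usp18* lay above the highest of these 32 genes on this scale, and *Ube2l6*, *Herc6* and *Uba7* below their median. The order at the top depends on the pseudocount, since 5 of the 32 genes (*Ifi44*, *Oas2*, *Oasl1*, *Oasl2* and *Rsad2*) had a greater ratio of means than *Isg15* and *Usp18*.

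The genes nearest in profile were found by the root mean square difference from each member over the 8 libraries, on the log2(FPKM + 1) scale after subtracting the DMSO mean. This measure includes the size of the contrast that chose the members, and says nothing of shared control. For *Isg15* the nearest gene was *Usp18*, at a distance of 0.64, followed by *Oasl1* (0.84) and *Irf7* (0.95). For *Usp18* they were *Oasl1* (0.25), *Irf7* (0.34) and *Mgarp* (0.39). *Ube2l6* and *Herc6* were 0.07 apart, and for both the nearest gene was *Sp100*, a nuclear body protein, at 0.06 and 0.05. The nearness of *Ube2l6* to these genes depends on the pseudocount of 1, since it lay below 1 FPKM in every DMSO library, and its ratio of means was 5.92 against 3.75 for *Herc6*. Their other neighbours were *Serpina3g* for *Ube2l6* (0.08) and *Dgat1* for *Herc6* (0.05). *Uba7* had no other member near it, and its neighbours were *Khnyn* (0.03), *Pdzk1ip1* (0.04) and *Cflar* (0.05).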

How the data were processed

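Bulk RNA-seq was analysed for 8 libraries, 4 with DMSO and 4 with DADA, grouped by their titles. Expression was deposited by the authors as FPKM for each gene in each library. The submitters' processing notes name HISAT2 2.0.5, StringTie 1.3.3, SAMtools 0.1.18, Picard 1.41, FastQC 0.11.9 and CASAVA 1.8.2 and the builds GRCm39 and GRCh38, with no roles. The annotation release is not given in the sources used here.

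Genes below 1 FPKM in more than 4 libraries were left out, and the remaining 10666 were compared on the log2(FPKM + 1) scale with limma 3.58.1 in R 4.3.3 (treatment as the only term, trended eBayes, Benjamini-Hochberg adjustment over all genes tested, call at an adjusted p under 0.05). The fit was tested on simulated data. The members and gene lists were chosen with earlier results of these data known. Genes were named by rule: the members, their nearest relatives, the STAT, IRF and receptor genes of the type I interferon route, the 4 largest changes called in each list, and the 3 nearest profiles of each member. *Ube2b*, *Usp21*, *Itgal*, *Itgb2*, *Irf3*, *Jak1*, *Plcg1*, *Mapk3*, *Psmb8*, *Ifi44*, *Oas2*, *Oasl2* and the interferon alpha and beta genes were named after their values were seen. A few named genes are left out of the text but remain in the list counts.

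Depth was estimated from values of up to 5 fragments in genes with 1 transcript in GENCODE M21, of which 36.8% to 44.1% lay within 0.1 of a whole number, where even spread gives 20.0%. No count test was run on it. Motifs were searched in RefSeq promoter windows (GRCm38.p6). The alternatives were a pseudocount of 0.1, other filters, TPM, median-ratio and quantile scaling, no trend, the replicate number as a block and each library left out. Python 3.11.15 and matplotlib 3.10.9 were used.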

Additional observations from a re-analysis of the deposited data

Results flagged for a closer look

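Among 136 groups of 4 libraries looked at, 1 library lay far from the other 3 in 2 groups, by the gap to its nearest neighbour as a share of the group's range (past the 95% point of Dixon's ratio), where chance gives about 1 in 20 groups. *Usp18* was at 31.8 FPKM in DADA 2 against 29.9 to 30.2 FPKM in the other DADA libraries (ratio 0.861), a gap that is small beside the difference from DMSO. The ratio of *Isg15* to *Herc6* was 0.622 in DMSO 4 against 0.828 to 0.852 in the other DMSO libraries (ratio 0.894), since *Isg15* was lowest and *Herc6* highest in that library. DMSO 4 and DADA 2 were each apart once.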

How the results depend on the processing

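The direction of all 5 members held under each of the alternatives that could be fitted. The median of their log2 fold changes, 1.70, was 2.45 with a pseudocount of 0.1, 2.11 under TPM scaling and 2.98 with a mean of at least 5 FPKM, which leaves out *Ube2l6*, and leaving out 1 library at a time kept it between 1.68 and 1.74. Of 52 other genes that the naming rule selects, 46 kept their direction and call in every alternative. *Uba6* took the other sign under TPM scaling (0.0234) and with 1 library left out (range -0.0364 to 0.0156, above 0 without DMSO 4 or, at 0.0019, DADA 2), with no call in any of them, and the cause was not tested. Of the counts, interferon genes called higher went from 1 to 6 without the filter, proteins acting on ISG15 called higher from 2 to 1 and the 1 lower interferon-stimulated gene to 0 under quantile normalization, and HECT ligases called lower from 4 to 2 under TPM scaling and to between 2 and 4 with 1 library left out. Member promoters with the response element went from 1 to 3 with at most 1 mismatch, a search chosen after seeing the data. Same-numbered libraries did not deviate together (correlations across genes between -0.12 and 0.0953), and no DMSO library correlated best with the DADA library of its number. With 4 libraries in a group, this cannot decide whether same-numbered cultures had a common origin. With the replicate number as a block, 3251 genes were called higher and 3744 lower, against 3296 and 3768. The values of *Usp18* and *Ube2l6* with DMSO rest on few fragments, which limits the precision of their ratios.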
